A study of Mus musculus with 8 samples.

Results

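The background of a NOMe-seq experiment was compared between day 0 and day 1 in the libraries that had received no M.CviPI. They are 4 of the 8 libraries of the series, taken by their labels: D0_Negative and D1_Negative, 2 libraries each. NOMe-seq marks DNA that is free of nucleosomes: M.CviPI, a bacterial methyltransferase, methylates the cytosine of accessible GpC, and bisulfite sequencing reads where it acted. All cells were mouse embryonic fibroblasts (MEFs), fibroblasts grown from mouse embryos. D0_Negative held control cells and D1_Negative cells 1 day into reprogramming by Etv2, an ETS transcription factor of endothelial and blood development. The sources used here do not state how Etv2 was delivered or whether the control cells carried the same construct. Nor do they state that both libraries of a day are independent cultures, so p-values measure only the spread between these libraries, which may be technical. The files hold no expression values, and the cell type could not be checked against its markers.

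Mammalian DNA methyltransferases act mainly on cytosines followed by guanine (CpG), and methylation in other contexts is scarce in most cells outside the germline, the brain and pluripotent cells. Bisulfite turns unmethylated cytosine into uracil and leaves methylated cytosine as it is, so a cytosine that escapes conversion is read as methylated. Libraries without enzyme therefore give the level that any accessibility signal has to exceed.

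The bases at the covered positions were read in RefSeq promoter windows (GRCm38.p6, the build of the files), each 300 bases long, from 250 before to 50 after a gene's start. All 65847 covered sites there, summed over the 8 libraries so that a cytosine counts once per library, were in GCA, GCC or GCT. None was in GCG, although GCG makes up 20.5% of the GpC positions of the 31396 autosomal windows. A GCG cytosine is also a CpG, so no CpG was covered in these windows. The context of sites elsewhere was not read. On day 0 the untreated level in GCA was 1.10% and 1.10%, in GCC 1.69% and 1.67%, and in GCT 1.70% and 1.49%. On day 1 it was 0.843% and 1.36% in GCA, 1.70% and 1.63% in GCC, and 1.59% and 1.66% in GCT. GCA was thus the lowest context in each of the 4 libraries.

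The windows below show which cytosines carry the measurement. In the first, which has the most cytosines covered in all 4 untreated libraries, capitals mark 46 such cytosines of 49 in GCH (H is any base but G). In the other windows capitals mark cytosines covered in any of the 4. A cytosine of the opposite strand is marked at its G. The sequences are from RefSeq and run 5′ to 3′ on the gene's strand, and all were chosen after their values were seen.
Gm33862 (chr11:3136826-3137125, plus strand): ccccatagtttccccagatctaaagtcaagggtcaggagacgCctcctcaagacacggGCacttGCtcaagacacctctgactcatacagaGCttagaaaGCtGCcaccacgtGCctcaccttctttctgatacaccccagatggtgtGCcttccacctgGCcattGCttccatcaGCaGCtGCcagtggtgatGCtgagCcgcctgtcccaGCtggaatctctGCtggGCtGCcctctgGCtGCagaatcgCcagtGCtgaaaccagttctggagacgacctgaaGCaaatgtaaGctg
Mbd4 (chr6:115853292-115853591, minus strand): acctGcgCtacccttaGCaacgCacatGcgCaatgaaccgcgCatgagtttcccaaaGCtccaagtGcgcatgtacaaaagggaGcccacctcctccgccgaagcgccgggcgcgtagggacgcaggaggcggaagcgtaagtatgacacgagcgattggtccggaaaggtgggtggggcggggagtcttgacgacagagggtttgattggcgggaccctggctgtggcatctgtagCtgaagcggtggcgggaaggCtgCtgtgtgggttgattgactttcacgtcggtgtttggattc
Tanc1 (chr2:59646519-59646818, plus strand): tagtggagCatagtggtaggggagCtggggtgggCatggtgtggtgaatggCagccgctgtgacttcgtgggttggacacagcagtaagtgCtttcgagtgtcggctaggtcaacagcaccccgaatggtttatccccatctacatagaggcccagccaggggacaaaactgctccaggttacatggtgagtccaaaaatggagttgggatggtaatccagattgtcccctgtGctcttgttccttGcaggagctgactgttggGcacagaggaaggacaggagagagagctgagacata
The Gm33862 window, inside the Sfi1 locus, was read with 826, 811, 749 and 760 calls, a call being a single read of a single cytosine. Its level was 1.94% and 1.48% on day 0 and 0.401% and 0.263% on day 1. Mbd4 encodes a glycosylase that binds methylated CpG and repairs mismatches there. Its GC-rich window holds 24 cytosines in GCG, which are not read, and 36 in GCH, of which 15 were covered in any library. In the Tanc1 window 1 cytosine, at position 59646553 of chromosome 2, was methylated on 3 of 3 reads in both day 1 libraries. Neither day 0 library had a value at that position, so the days cannot be compared there.

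The day 0 libraries covered 502588 and 439527 sites, and the day 1 libraries 1012656 and 991688. The median site had 3 reads in each, and from 87.4% to 87.8% of sites had exactly 3. Autosomal sites over 100 reads numbered 242 to 269 per library and held 6.13% to 9.92% of a library's autosomal calls. With these deep sites included, the autosomal level was 2.93% to 5.01% in untreated libraries and 30.8% to 31.8% in treated ones. From here on autosomal values use sites of 3 to 100 reads unless deep sites are named. Mitochondrial DNA moved in the same direction as the autosomes: its untreated level was 3.44% and 3.59% on day 0 and 1.66% and 1.54% on day 1. The X chromosome had 2.52% and 2.49% against 1.16% and 1.06%. The day 1 libraries also held more calls, 3507942 and 3577740 against 1693307 and 1898356. The part of either in the autosomal difference was not tested.

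The first question was whether the background differs when the same DNA is compared. Over all autosomal sites of 3 to 100 reads the level was 2.30% and 2.37% on day 0 and 1.10% and 1.09% on day 1, that is 2.34% ± 0.0447 against 1.10% ± 0.000780 (SD, n = 2). The day 0 mean was 2.13 times the day 1 mean, the libraries of the days did not overlap, and the exact two-sided permutation p was 0.333, the smallest that 2 against 2 libraries allow. In the 2608 blocks of 1 kb with calls in all 4 libraries, each block weighted equally, the level was 2.61% and 2.74% on day 0 and 1.72% and 1.73% on day 1 (exact permutation p = 0.333). The difference there was -0.952 percentage points, or 1.55-fold. At single sites covered in all 4 libraries, the strictest match, the means were 4.11% and 3.76%, a difference of -0.355 points with overlap of the libraries (exact permutation p = 0.667). The matched 1 kb blocks are few of the 619779 read in any library, and deep: they held 3.01% to 6.25% of a library's sites, at 8.50 to 8.86 reads per site against 3.29 to 3.44 overall. In the 86826 blocks with calls on both days, libraries of a day pooled and blocks weighted equally, day 0 had 2.73% and day 1 1.19%. Each way of matching thus also changes which loci are compared. How far that accounts for the smaller difference at matched blocks and sites was not tested.

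Sites within 1 kb of either annotated end of a gene differed least. At these gene ends the level was 1.79% and 1.67% on day 0 and 1.13% and 1.14% on day 1, a ratio of 1.53. In gene bodies, inside a gene and over 1 kb from any end, it was 2.15% and 2.24% against 1.01% and 1.00%, a ratio of 2.18. In intergenic DNA it was 2.72% and 2.82% against 1.21% and 1.22%, a ratio of 2.28. No class had a day 1 library above a day 0 library, and the exact permutation p was 0.333 in each, also after adjustment over the 3 classes.

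The order of the classes within a library differed between the days. Intergenic DNA exceeded gene ends by a factor of 1.52 and 1.70 on day 0, and by 1.07 and 1.07 on day 1. Gene bodies lay above gene ends on day 0, with ratios of 1.2 and 1.35, and below them on day 1, with ratios of 0.895 and 0.882. Both ratios separated the days without overlap (exact permutation p = 0.333). The day 1 excess of intergenic DNA was not seen at all distances. Outside genes, day 1 had 1.01% and 0.975% at 20000 to 50000 bp from a gene end, below the 1.13% and 1.14% of gene ends. Over 100 kb from an end it had 2.21% and 2.19% outside genes. Without chromosome 9, sites over 100 kb from an end, inside genes or outside, had 0.991% and 0.970%. The ratio of the classes without chromosome 9 was not computed.

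**Figure D1:**
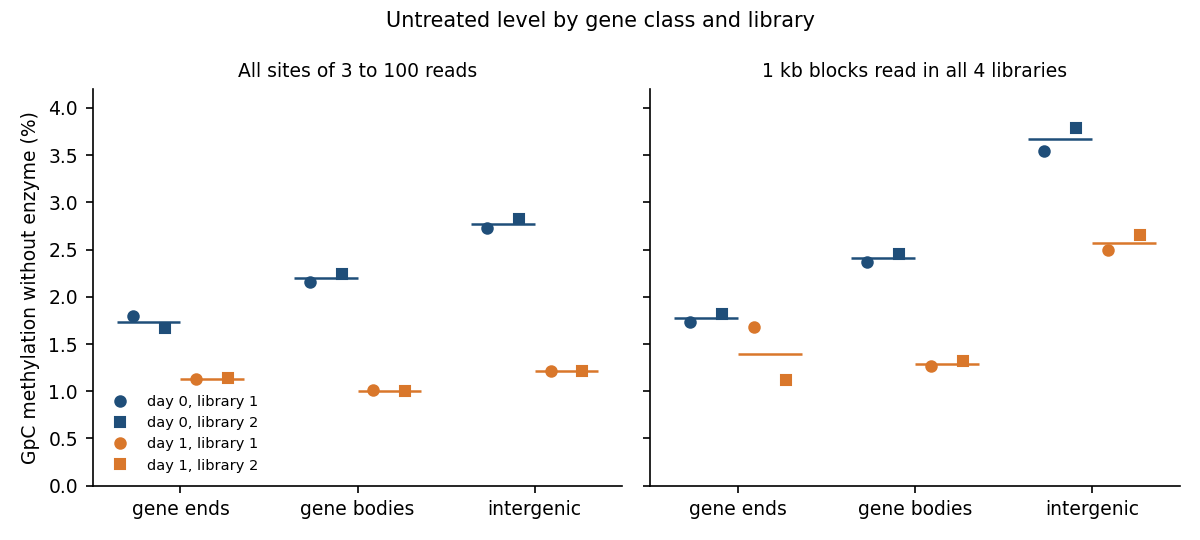
Untreated GpC methylation (y axis, percent) at gene ends, in gene bodies and in intergenic DNA, for each of the 4 libraries (points) with the mean of each day (lines). On the left, at all sites of 3 to 100 reads, day 1 lies between 1.00% and 1.22% in every class, while day 0 runs from 1.67% at gene ends to 2.82% in intergenic DNA. On the right are the 1 kb blocks read in all 4 libraries, where 1 day 1 library reached 1.68% at gene ends.

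On the matched blocks gene bodies had 2.37% and 2.46% on day 0 and 1.26% and 1.32% on day 1 (1253 blocks), and intergenic DNA 3.55% and 3.79% against 2.49% and 2.66% (808 blocks). At gene ends (435 blocks) day 0 had 1.74% and 1.82%, and the day 1 libraries differed from each other, at 1.68% and 1.12%. The difference of -0.380 points at gene ends ran from -0.759 without D0_Negative replicate 2 and -0.693 without D1_Negative replicate 1 to -0.274 without D1_Negative replicate 2, where the groups overlapped (exact permutation p = 0.667). With gene ends of 500 bp in place of 1000 bp it was -0.0743 points (exact permutation p = 0.667). Restricted to single sites covered in all 4 libraries, gene ends differed by -0.538 points and gene bodies by -0.908 (exact permutation p = 0.333 each), and intergenic DNA by 0.0293 points upward (exact permutation p = 1).

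The distance to the nearest gene end, looked at after these values were seen, resolved the pattern. Within 100 bp of an end the level was 1.68% and 1.49% on day 0 and 1.33% and 1.53% on day 1, so the days overlapped (exact permutation p = 0.667). At sites of exactly 3 reads they were 1.64% and 1.53% against 1.31% and 1.52%, just apart. From 100 to 250 bp it was 1.61% and 1.58% against 1.17% and 1.18%. From 250 to 1000 bp it was 1.87% and 1.73% against 1.09% and 1.07%. The days stood apart from 100 bp outward. From 1 to 10 kb it was 2.06% and 2.18% against 1.02% and 1.01%, and from 10 to 100 kb 2.34% and 2.39% against 1.02% and 1.02%.

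Far from gene ends the day 0 level was thus higher than near them, and the day 1 level lower. The ratio of the level at 10 to 100 kb to that within 100 bp was 1.39 and 1.61 on day 0 and 0.764 and 0.669 on day 1 (exact permutation p = 0.333). At sites of exactly 3 reads that ratio was 1.40 and 1.52 against 0.732 and 0.644, and at sites with a single methylated read or none 1.30 and 1.47 against 0.700 and 0.638. In 1 kb blocks with calls on both days it held as well: 1.95% against 1.72% within 100 bp (851 blocks) and 2.79% against 1.13% at 10 to 100 kb (36854 blocks). Over 100 kb from any gene end, inside genes or outside, the level reached 4.05% and 4.28% on day 0. On day 1 it was 1.79% and 1.75%. Without chromosome 9 it was 2.75% and 2.74% against 0.991% and 0.970%.

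**Figure D2:**
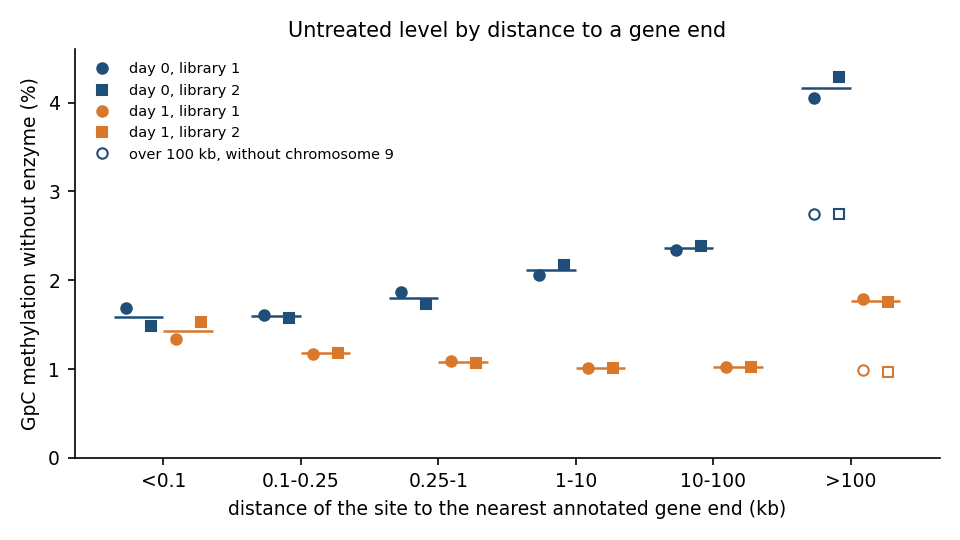
Untreated GpC methylation (y axis, percent) by distance of the site to the nearest annotated gene end (x axis, kb), for each library (points) with the mean of each day (lines); open symbols leave out chromosome 9 in the last class. The days overlap within 0.1 kb (1.33% to 1.68%) and stand apart from there on, up to 2.34% and 2.39% against 1.02% and 1.02% at 10 to 100 kb.

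Promoter windows showed no common direction. Over all 31396 windows the level was 1.55% and 1.47% on day 0 and 1.43% and 1.56% on day 1 (exact permutation p = 1). Split by GC content, after the distance profile was seen and in a single choice of limits, the windows went different ways. Windows of 60% GC and over (9423 windows) had 1.5% and 1.28% on day 0 and 1.86% and 1.89% on day 1: here both day 1 libraries were higher. Windows of 45 to 60% GC (15151 windows) had 1.64% and 1.64% on day 0 and 1.17% and 1.38% on day 1. Windows under 45% GC had 1.72% and 4.33% against 0.849% and 1.43%, on as few as 577 calls in a library.

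The ratio of the level in windows of 60% GC and over to that at 45 to 60% was 0.916 and 0.781 on day 0 and 1.59 and 1.37 on day 1 (exact permutation p = 0.333). GC-rich windows were also higher on day 1 at sites of exactly 3 reads, with 1.39% and 1.33% against 1.82% and 1.94%, and at sites with a single methylated read or none, with 1.38% and 1.23% against 1.74% and 1.81%. Without chromosomes 9 and 11 they had 1.51% and 1.31% against 1.85% and 1.99%. For windows with calls on both days, the libraries of a day were pooled within a window and windows weighted equally. The level in the 713 GC-rich windows was then 1.74% on day 0 and 2.33% on day 1. In the 404 such windows of 45 to 60% GC it was 2.48% and 1.83%. Only 16 windows under 45% GC had calls on both days, at 0.368% and 0.845%, the opposite order to that of all their sites.

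**Figure D3:**
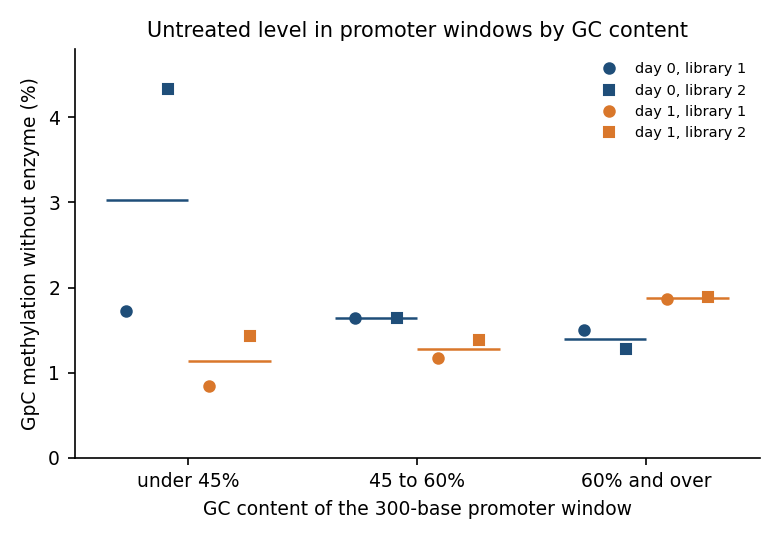
Untreated GpC methylation (y axis, percent) in 300-base promoter windows by GC content (x axis), for each library (points) with the mean of each day (lines). In windows of 60% GC and over, both day 1 libraries (1.86% and 1.89%) lie above both day 0 libraries (1.5% and 1.28%), while the lower GC classes have the opposite order.

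Over all sites, day 1 was lower at each read depth up to 100 reads. Sites of exactly 3 reads had 2.20% and 2.22% on day 0 and 0.984% and 0.995% on day 1. Sites of exactly 4 reads had 1.96% and 2.01% against 0.993% and 1.01%. Sites of 5 to 9 reads had 2.73% and 2.80% against 1.39% and 1.37%, and sites of 10 to 100 reads 3.40% and 3.70% against 2.80% and 2.58%. The ratio of day 0 to day 1 was thus 2.24, 1.99, 2.0 and 1.32 from the shallowest to the deepest of these classes, each without overlap (exact permutation p = 0.333, also adjusted over the depth classes). On the matched 1 kb blocks the ratios were 1.54, 1.19, 1.57 and 1.3, also without overlap. The difference was smallest there at exactly 4 reads, with 1.89% and 1.94% on day 0 and 1.74% and 1.47% on day 1. Sites of 10 to 100 reads lay almost only in these 2608 blocks, with 6991 of 7017 and 6570 of 6609 sites on day 0. On day 1 it was 8676 of 8693 and 8694 of 8695. Of the day 0 sites of exactly 3 reads, the blocks held 11823 of 437404 and 11770 of 381351. The depth classes over all sites thus also differ in their loci. How far depth or locus accounts for the lower ratio at 10 to 100 reads was not tested.

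Sites over 100 reads had the opposite order, with 28.7% and 29.0% on day 0 and 31.8% and 30.9% on day 1. Most of their calls came from 2 places: from 52.7% to 53.6% from chromosome 2 between 98 and 99 Mb, and from 30.6% to 32.5% from chromosome 9 between 3 and 4 Mb. In the first the level was 30.3% and 31.5% on day 0 and 33.7% and 32.7% on day 1, and in the second 31.6% and 31.9% against 34.1% and 33.2%.

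The methylated reads were then separated by how many of a site's reads carried them. Sites with a single methylated read, the sporadic calls, made up 6.27% and 6.30% of sites on day 0 and 2.97% and 3.01% on day 1. They held 79.7% and 77.3% of all methylated reads on day 0 and 82.4% and 83.3% on day 1. Sites methylated on over 50% of their reads made up 0.308% and 0.330% of sites on day 0, which is 1535 and 1437 sites, and 0.0923% and 0.0851% on day 1. The share of mostly methylated sites was thus 3.6 times as high on day 0, against 2.10 times for single-read sites. Of the difference of -1.24 points in level, single-read sites gave -0.927 points and mostly methylated sites -0.161.

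The excess of mostly methylated sites on day 0 was largest in intergenic DNA. Their share there was 0.390% and 0.401% on day 0 and 0.0961% and 0.0845% on day 1, a ratio of 4.38, against 0.170% and 0.160% and 0.0838% and 0.0978% at gene ends, a ratio of 1.82. On the matched blocks the share of mostly methylated sites overlapped between the days, at 0.297% and 0.316% against 0.258% and 0.305% (exact permutation p = 0.667). Leaving out any 1 library, which admits more blocks, moved that difference from -0.0257 points to between -0.110 and -0.0759. Single-read sites on the matched blocks had 9.94% and 10.1% against 7.27% and 6.74%, without overlap.

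At sites with exactly 3 reads, where depth is equal, 1 methylated read was seen at 5.93% and 5.95% of sites on day 0 and at 2.75% and 2.79% on day 1. The share with 2 of 3 was 0.282% and 0.287% against 0.0731% and 0.0672%. The share with 3 of 3 was 0.0396% and 0.0493% against 0.0197% and 0.0184%. The ratio of the day means was 2.14, 4.06 and 2.33 in that order, so it was largest at 2 of 3. Sites with 2 or 3 of 3 count as mostly methylated. Independent reads at each library's own level would give 2 of 3 at 0.143% and 0.145% of sites on day 0. On day 1 they would give 0.0288% and 0.0294%. For 3 of 3 they would give 0.00107% and 0.0011% on day 0, and 9.54e-05% and 9.84e-05% on day 1. Whether mostly methylated sites differ between the days beyond coinciding single reads was not tested.

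**Figure D4:**
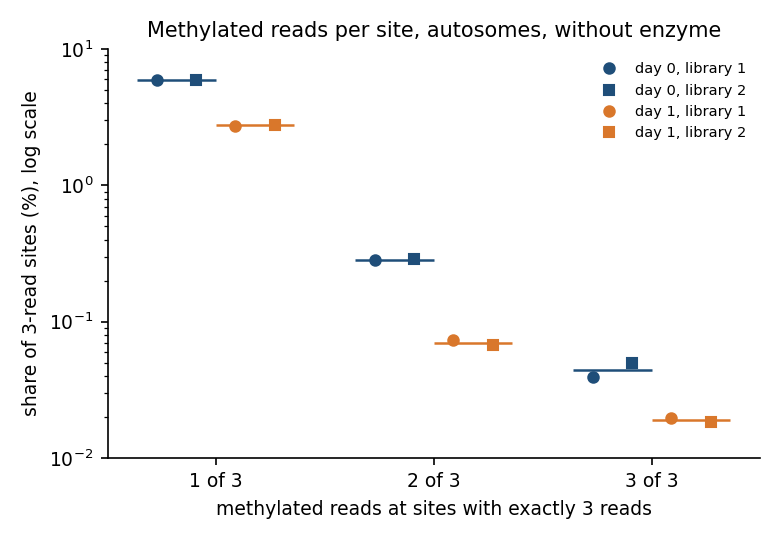
Share of autosomal sites with exactly 3 reads (y axis, percent, log scale) that had 1, 2 or 3 methylated reads (x axis), for each untreated library (points) with the mean of each day (lines). Day 1 lies below day 0 at each number, with the widest gap at 2 of 3 (0.282% and 0.287% against 0.0731% and 0.0672%).

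Sites were then followed from library to library. Of the mostly methylated sites of a day 0 library that its replicate covered (133 to 136 sites), 64.7% to 66.2% were mostly methylated there too. On day 1 that share was 61.0% to 71.2% (66 to 77 sites). Across days it was 48.6% to 57.7% from day 0 to day 1 and 59.3% to 65.1% from day 1 to day 0. Of single-read sites, 0.500% to 0.924% on day 0 and 0.214% to 0.618% on day 1 were mostly methylated in the replicate. A methylated read of any number was seen again at 29.0% to 29.3% of single-read sites on day 0 and at 18.6% to 20.3% on day 1, against 11.9% to 12.4% and 6.26% to 6.77% of unmethylated sites. Single-read sites thus carried methylated reads in the replicate more often than unmethylated sites did, in each pair of libraries. These shares describe the few sites that 2 libraries both covered, which are deeper than most. With 3 to 9 reads in both libraries, mostly methylated sites were so in the replicate at 63.3% to 63.9% on day 0 and 47.8% to 64.7% on day 1. Across days that share was 27.0% to 51.6% from day 0 to day 1 and 41.7% to 51.5% from day 1 to day 0, lower than with deeper sites included. Single-read sites at 3 to 9 reads carried a methylated read in the replicate at 19.2% to 19.6% on day 0. On day 1 it was 8.09% to 8.97%. For unmethylated sites it was 7.20% to 7.22% and 3.30% to 3.40%. With deeper sites included, single-read sites had a mean of 15.2 and 16.0 reads in the replicate on day 0, against 8.99 and 9.10 for unmethylated sites.

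Few positions could be followed: of the 1535 and 1437 mostly methylated sites of the day 0 libraries, the replicate covered 136 and 133. On day 1 it covered 77 of 928 and 66 of 838, so most such sites could not be seen again in the replicate. Of 4530 sites mostly methylated in any untreated library, 4380 were so in 1 library, and 111, 20 and 19 in 2, 3 and 4 libraries. Those seen on both days numbered 73, of which 19 lay at 3 to 4 Mb of chromosome 11 and 12 at 3 to 4 Mb of chromosome 9. In treated libraries of the same day, 71.1% to 79.7% of the day 0 and 77.3% to 79.4% of the day 1 mostly methylated sites were mostly methylated, against 17.6% to 18.6% and 23.5% to 26.6% of single-read sites and 14.7% to 16.2% and 17.2% to 17.8% of unmethylated sites.

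Single-read calls came in groups along the DNA. Within 2 to 20 bp of a single-read site, 28.1% and 29.0% of covered neighbours on day 0 and 31.8% and 33.3% on day 1 carried a methylated read. Near an unmethylated site that share was 3.99% and 4.08% against 2.06% and 2.02%. Neighbours often lie on the same reads. Sites of exactly 3 reads were also joined into runs of at least 5 sites with gaps of at most 100 bp. Runs in which most sites had a methylated read made up 0.903% and 0.962% of runs on day 0 and 0.728% and 0.805% on day 1, yet held 16.9% and 18.7% against 23.6% and 25.8% of the methylated reads in runs. Runs with no methylated read were 81.8% and 81.6% of runs on day 0 and 89.4% and 89.6% on day 1.

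The difference extended along all chromosomes. All 19 autosomes were lower on day 1 in both libraries, with a ratio of day 1 to day 0 from 0.405 on chromosome 3 to 0.564 on chromosome 9 (median 0.466). Chromosome 9 had the highest level, at 5.09% and 5.51% on day 0 and 2.98% and 2.99% on day 1. Among 2128 windows of 1 Mb with at least 100 calls in every untreated library, edgeR's quasi-likelihood test on methylated and unmethylated calls found 912 lower on day 1 at an adjusted p under 0.05, which is 42.9% of the windows. It found 0 higher (0 also at an unadjusted p under 0.05, and 0 by limma). In 78.8% of windows both day 1 libraries lay below both day 0 libraries, and the median log2 change in the odds of methylation was -1.23. Without D0_Negative replicate 1 or 2 the test called 207 and 215 windows, and without D1_Negative replicate 1 it called 600.

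After each library was centred on its own median, which moved the median change of the windows from -1.23 to -0.00975, 5 windows were higher (0.235%) and 3 lower (0.141%) on day 1. The 5 were windows whose level did not drop with the rest. Genes named for a window are its longest protein-coding genes, and the calls of these windows were not placed in them. Chromosome 9 at 3 to 4 Mb, with Gucy1a2, Cwf19l2 and Alkbh8, had 23.8% and 24.5% on day 0 and 24.3% and 23.1% on day 1 (centred edgeR adjusted p = 1.06e-05). Chromosome 17 at 13 to 14 Mb, with Afdn, Tcte2, Unc93a, Tcp10c and Tcp10b as its longest protein-coding genes, had 2.19% and 2.29% against 2.65% and 1.56%. Chromosome 17 at 39 to 40 Mb had 1.53% and 1.70% against 1.43% and 1.08%, on 23713 to 29373 calls per library (longest protein-coding genes: the pheromone genes Esp38, Esp15, Esp16, Esp18 and Esp24). Without centring that window was among those called lower (edgeR adjusted p = 0.0331). The other two, named after their values were seen, were chromosome 6 at 29 to 30 Mb and chromosome 16 at 57 to 58 Mb.

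**Figure D5:**
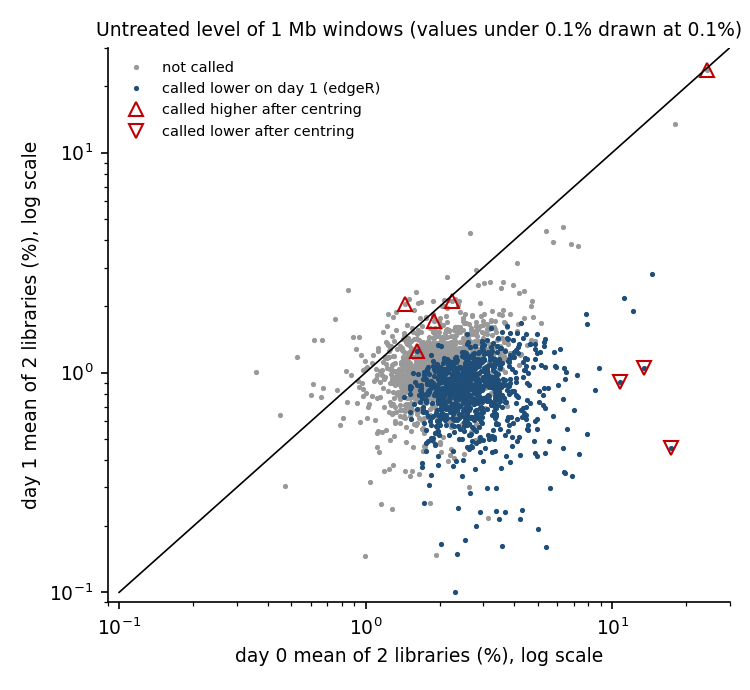
Untreated level of 2128 windows of 1 Mb on day 0 (x axis) and day 1 (y axis), each the mean of 2 libraries in percent on a log scale, with the line of equal levels. Blue points are the 912 windows called lower on day 1, and red triangles the 5 higher and 3 lower after centring; of the triangles pointing up, 1 lies above the line and the others just below it, and those pointing down lie at 1.04% or less on day 1.

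The 3 windows lower after centring were also called without it. Chromosome 3 at 117 to 118 Mb (Plppr5, Snx7 and Plppr4) had 10.6% and 10.8% on day 0 and 1.38% and 0.435% on day 1 (edgeR adjusted p = 4.8e-07). Chromosome 9 at 26 to 27 Mb (Glb1l3, Gm1110, Glb1l2, B3gat1 and Acad8) had 16.2% and 10.7% against 0.718% and 1.37% (edgeR adjusted p = 1.63e-06). Chromosome 4 at 80 to 81 Mb (Lurap1l and Tyrp1) had 15.7% and 18.9% against 0.909% and 0% (edgeR adjusted p = 1.25e-05).

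In each of them 1 block of 1 kb carried most of the methylated calls of day 0, and the day 1 libraries hardly read it. On chromosome 4 the block from 80232000 to 80232999 had 15 of 15 and 19 of 19 calls methylated in the day 0 libraries and 0 calls in both day 1 libraries. Without it the window had 2.15% and 3.88% on day 0. On chromosome 9 the block from 26170000 to 26170999 had 36 of 49 and 26 of 35 calls methylated on day 0, and 0 calls and 6 of 9 on day 1, and without it the window had 1.08% and 1.27% on day 0. On chromosome 3 the block from 117161000 to 117161999 had 24 of 50 and 28 of 49 on day 0 and 0 calls on day 1, and the rest of that window 5.37% and 5.42% on day 0. For the blocks on chromosomes 3 and 4 there is no day 1 measurement, so a lower level there cannot be told apart from a difference in which DNA was read.

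Blocks of this kind were counted over all autosomes. Among 7303 blocks with at least 9 calls in both day 0 libraries, 12 had over 50% of their calls methylated in both. Of 21240 such blocks on day 1, 0 did in both libraries and 5 did in 1 of them. Of the 12 blocks, 2 had at least 9 calls in a day 1 library, and 1 of those was over 50% methylated there too. The blocks over 50% methylated, each library taken alone, held 1.02% and 1.67% of a day 0 library's methylated reads, and 0.402% and 0.214% on day 1.

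The window with the smallest p, chromosome 11 at 3 to 4 Mb (edgeR adjusted p = 1.04e-20), had 2.31% and 2.35% on day 0 and 1.14% and 1.10% on day 1, close to the ratio of the whole genome. The Sfi1 locus, which encodes a centrin-binding protein of the centrosome, supplied 91.9% to 92.7% of its calls. The 3 windows with the smallest p among those with a higher level on day 1 were not called. They lay on chromosome 16 at 58 to 59 Mb (1.70% and 0% against 2.49% and 2.28%), on chromosome 7 in the megabase from 102 Mb (0.422% and 0.296% against 1.37% and 0.636%), and on chromosome 18 at 10 to 11 Mb (0.576% and 0.749% against 1.57% and 1.23%). Their lowest edgeR adjusted p was 0.179.

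Few gene loci, each gene with 1 kb on both sides, passed the test. Of 10478 loci with at least 10 calls in every untreated library, edgeR called 17 lower on day 1 (0.162%) and 0 higher (20 at an unadjusted p under 0.05, and 0 by limma). The libraries of the days did not overlap at any of the 17, against 24.6% of all loci with both day 1 libraries below both of day 0. The median log2 odds change over all loci was -0.88. With 1 library left out the count ran from 0 (without either day 1 library) to 5 (without D0_Negative replicate 2; 4 without replicate 1), and after centring it was 0 (106 higher and 129 lower at an unadjusted p under 0.05). Loci that overlap share reads, and the limits given for a level of 0 cover counting error only.

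Sfi1 (chromosome 11, 3131850 to 3203347) had the smallest p among them. Its level was 2.34% and 2.36% on day 0 and 1.14% and 1.09% on day 1, on 65154 to 95918 calls, a log2 odds change of -1.10 (edgeR adjusted p = 0.000688). Its methylated calls were spread over 72 of 73 blocks on day 0 and 70 of 71 on day 1. Sfi1 also had the most mostly methylated sites on either day, 16 and 17 on 70256 and 65154 calls on day 0, and 22 and 20 on 95053 and 95918 calls on day 1.

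E030030I06Rik (chromosome 10) had 4.23% and 2.95% on day 0 and 0.248% and 0.629% on day 1 (edgeR log2 odds change -3.01, adjusted p = 0.00505). Here 1 block held 95.6% of the methylated calls of day 0 and was read in all 4 libraries: 29 of 689 and 14 of 471 calls on day 0, and 2 of 769 and 6 of 854 on day 1. Bcas3 (chromosome 11), a cytoskeletal protein of migrating cells, had 3.96% and 2.25% against 0.261% and 0.440%, spread over 16 blocks on day 0 and 7 on day 1 (edgeR adjusted p = 0.0221). Mical3 (chromosome 6), an enzyme that acts on the actin cytoskeleton, had 2.47% and 2.06% against 0.506% and 0.423%, with methylated calls in 25 and 12 blocks (edgeR adjusted p = 0.0221).

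At other called loci 1 block also led on day 0, and in Phf21a and Stx8 day 1 did not read it. Phf21a (chromosome 2), a subunit of a histone demethylase complex, had 11.9% and 16.2% on day 0 and 0% and 0.893% on day 1. Of its methylated calls on day 0, 90.9% came from 1 block, with 15 of 62 and 15 of 36 calls methylated and 0 calls on day 1. Stx8 (chromosome 11), a SNARE protein of endosomes, had 5.88% and 7.10% against 0.941% and 0.426%. Its leading block had 15 of 21 and 8 of 12 calls methylated on day 0 and 0 calls on day 1. Egflam (chromosome 15), an extracellular matrix protein, had 7.73% and 3.66% against 0.269% and 0.380%. It had 13 of 13 calls methylated in a block of the first day 0 library and 0 of 22 in the first day 1 library.

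A pair of lncRNA loci was called as well. Gm36244 (chromosome 6) had 4.71% and 4.8% on day 0, on 170 and 125 calls, and 0% on 256 and 328 calls on day 1. A count of 0 there allows up to 0.514% over both libraries. The pooled day 0 level, 4.75%, was 9.24 times that limit. This ratio leaves out the error on the 14 methylated calls of day 0. Zmiz1os1 (chromosome 14) had 4.38% and 1.36% against 0% and 0.297%.

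Loci with several mostly methylated sites in both day 0 libraries included Tmem135 (chromosome 7), with 12 and 9 such sites, all in 1 block where 27 of 40 and 19 of 27 calls were methylated. The day 1 libraries read 3 and 0 calls in that block, and the Tmem135 change was not called. Gm39903 (chromosome 2) had 4 and 3 such sites on day 0 and 2 and 2 on day 1, at levels of 31.5% and 27.9% against 17.5% and 18.5%. On day 1, Tmem117 had 1 and 4, Hjurp, the chaperone of centromeric histone, 2 and 2, and the overlapping loci Gm38510 and C130026I21Rik 1 and 3 each. None of these 4 loci was called. Hjurp had 1.56% and 2.15% on day 0 and 2.39% and 2.62% on day 1.

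No locus was called higher. The smallest p among loci with a higher level on day 1 belonged to Mepe, a bone matrix protein (0.212% and 0.36% against 1.08% and 3.91%), the endocytic sorting nexin Snx9 (0% and 0% against 1.69% and 0.417%), the riboflavin transporter Slc52a2 (0% and 0% against 7.27% and 4.0%), LOC115488769 (0% and 0% against 9.42% and 0%) and Actr3b (0.704% and 0.481% against 8.78% and 1.45%). Their lowest edgeR adjusted p was 0.383. The day 0 values of 0 allow up to 1.33% and 1.69% in Snx9 (226 and 178 calls). In Slc52a2 they allow up to 4.41% and 3.49% (68 and 86 calls), and in LOC115488769 up to 2.04% and 5.45% (147 and 55 calls). The day 1 value of 0 in LOC115488769 allows up to 4.35% (69 calls). In Actr3b 1 block of 1 library supplied 13 methylated calls, with 13 of 57 methylated.

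After centring, the smallest p among higher loci belonged to the overlapping genes Filip1l and Cmss1 on chromosome 16, to Smo, the signal transducer of the Hedgehog pathway, to Mepe and to 2700054A10Rik. Filip1l had 0.991% and 1.43% on day 0 and 3.28% and 1.93% on day 1, and Smo 1.29% and 2.50% against 1.96% and 3.07%, with overlap. 2700054A10Rik had 2.31% and 2.36% against 3.02% and 1.75%, also with overlap. None was called with centring on the median. With centring on the pooled odds, added after seeing the data, Filip1l, Cmss1 and Smo were called (edgeR adjusted p = 0.0394 each).

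Gene lists for fibroblast and endothelial identity, ETS and haematoendothelial factors, imprinting, DNA methylation, germline and housekeeping genes had 0 members called by edgeR in either direction, against 0.162% of all loci called lower. At an unadjusted p under 0.05 there were 0 to 2 members per list, and the single locus called by limma, Sfi1, is in none of them. Pooled over its tested members, every list was lower on day 1 without overlap of the libraries, as was the genome. Fibroblast and matrix genes (13 of 27 members tested) had 1.83% and 1.72% on day 0 and 0.869% and 1.05% on day 1, a ratio of 1.85. Among them fibronectin, Fn1, had 4.76% and 2.22% on day 0 and 0% on 286 and 175 calls on day 1, where up to 0.651% is possible over both libraries (edgeR adjusted p = 0.226). The median log2 odds change of the list was -0.28, with 8 of 13 below 0, against -0.88 for all loci, of which 68.8% were below 0.

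Endothelial genes (15 of 24 tested) had 2.65% and 1.53% against 0.988% and 1.24%. Flt4, a VEGF receptor of lymphatic vessels, had 5.17% and 4.76% against 0.592% and 0%. These rest on 3 of 58 and 2 of 42 methylated calls against 1 of 169 and 0 of 147 (edgeR adjusted p = 0.765). The 0 allows up to 2.04% in that library. ETS and haematoendothelial factors (13 of 20 tested) had 1.65% and 2.91% against 0.805% and 0.968%, a ratio of 2.57. The member of smallest p was the ETS repressor Etv6, with 2.36% and 4.6% against 1.12% and 1.49%. Their list medians were -1.57 (9 of 15 below 0) and -1.0 (10 of 13).

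Imprinted genes (14 of 30 tested) had 1.25% and 2.21% against 0.653% and 0.923%, with the potassium channel Kcnq1 at 1.29% and 5.26% against 0.775% and 0.402%. DNA methylation genes (13 of 22 tested) had 1.32% and 1.99% against 1.23% and 0.685%. Tet1, which oxidises methylated cytosine, had 3.15% and 2.50% against 0.529% and 0%. That is 4 of 127 and 3 of 120 methylated calls against 1 of 189 and 0 of 185 (edgeR adjusted p = 0.771). Their medians were -1.12 (12 of 14 below 0) and -0.90 (9 of 13).

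Germline genes (8 of 20 tested) had 1.96% and 1.74% against 1.45% and 1.32%, a ratio of 1.33 and the smallest of the lists. Piwil2, of the piRNA pathway, had 10.5% and 0% against 1.38% and 0%, on 30 to 218 calls. Housekeeping genes had only 4 of 20 members tested, at 1.06% and 1.66% against 0.929% and 0.574%, and Ywhaz, a 14-3-3 protein, had 3 methylated calls, all in 1 day 0 library. The medians of these lists were -0.60 (4 of 8 below 0) and -1.61 (4 of 4). Differences between lists were not tested.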

How the data were processed

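The deposited files list cytosines on build mm10, per the submitters' processing notes, 1 line per site and library. The authors deposited the methylated fraction of the reads over each site, rounded to 2 decimals, and the count of those reads. The columns have no header, and the units were read from the values. At 100% of sites the product of both was whole within the rounding, and no site had fewer than 3 reads. The sources used here do not state the aligner, the caller, the base context or how duplicates were handled. Methylated reads were the rounded product.

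Members, gene lists and tests were chosen with earlier results of these data known. Genes came from a RefSeq annotation (GRCm38.p6) without strand. Levels are methylated calls over calls at autosomal sites of 3 to 100 reads, compared by exact permutation. In the matched blocks of 1 kb, and in blocks or promoter windows with calls on both days, each block or window weighs the same. Summed calls of windows and loci were fitted with edgeR 4.0.16 (R 4.3.3; a Benjamini-Hochberg threshold of 0.05) after the code was tested on simulated data, with limma 3.58.1 on log2((methylated + 1)/(unmethylated + 1)) as an alternative. Named were the 5 loci and 3 windows of smallest p in each direction, with and without centring on the median, the 5 loci with the most mostly methylated sites per day, and the member of smallest p of each of 7 lists. Distance classes, GC classes, runs, leading blocks and centring on the pooled odds were added after seeing the data. Depth per site was low, so values were pooled, and the replicate numbers are not known to mark a shared culture.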

Additional observations from a re-analysis of the deposited data

Results flagged for a closer look

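Sites over 100 reads, kept out of the values above, stood out because their untreated level on day 1 lay above that of both day 0 libraries, by 2.47 percentage points (28.7% and 29.0% on day 0, 31.8% and 30.9% on day 1; exact permutation p = 0.333, the smallest that 2 against 2 libraries allow).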

How the results depend on the processing

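Levels and shares kept their direction under every alternative, except intergenic DNA at sites covered in all 4 libraries (0.0293 points). The alternative with the replicate number as a block repeats the main values of levels and shares, so it could not change them. Windows called were 912, but 8 and 7 after centring on the median and the pooled odds, and 207 to 631 without 1 library. Loci called were 17, but 145 with all 8 libraries, 1 in limma, 0 and 3 after the centrings, 8 with no minimum of calls and 0 to 5 without 1 library. The cause was not tested. With the replicate block 895 windows and 18 loci were called, and no count moved by over 1.5 times. Deviations of same-numbered libraries correlated at 0.0356 (windows) and -0.00965 (loci), so no pairing by number was seen. With so few methylated calls per window or locus, a pairing could go unseen.

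Log2 odds changes of some named windows and loci turned in sign. After centring on the median and on the pooled odds they were 1.10 and 0.969 for chromosome 17 at 13 Mb, 1.2 and 1.07 for chromosome 9 at 3 Mb, 0.855 and 0.722 for chromosome 17 at 39 Mb, 0.16 and 0.0260 for chromosome 11 at 3 Mb, 0.942 and 1.00 for 2700054A10Rik, 0.0108 and 0.0728 for Gm39903 and 0.114 and 0.176 for Tmem117. At sites with a single methylated read or none they were 0.227 for chromosome 17 at 13 Mb, 0.445 for 2700054A10Rik, 4.77 for Tmem135 and 0.327 for Gm39903. With sites over 100 reads they were 0.114 for chromosome 9 at 3 Mb and 0.0654 for 2700054A10Rik. Without 1 library they ran from -0.527 to 0.249 for chromosome 17 at 13 Mb, -0.0828 to 0.0121 for chromosome 9 at 3 Mb, -0.0170 to 0.955 for Smo, -0.423 to 0.380 for 2700054A10Rik, -5.30 to 1.89 for Piwil2 and -4.06 to 0.386 for Ywhaz.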
